A study of Homo sapiens with 12 samples.

Results

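Progression through the G1 phase of the cell cycle was followed at the level of messenger RNA in 10 genes of its core machinery: *CCND3*, *CDK4*, *CDK6*, *CCNE1*, *CCNE2*, *CDK2*, *CDKN1A*, *CDKN1B*, *RB1* and *E2F1*. They were chosen by name, as the rows of the deposited count table whose Ensembl identifier carries these symbols. All 10 were found among the 60676 rows of that table, and all 10 were among the 20364 genes tested, which had a sum of at least 10 counts across libraries. The cells were PC3, an established human line that was grown from a prostate cancer metastasis in bone. PC3SFRP2 cells carried an integrated Sleeping Beauty plasmid with the coding sequence of *SFRP2*, which encodes a secreted modulator of WNT signaling, and the control PC3 cells carried that plasmid with no insert. Both kinds of cells had been selected with puromycin and sorted for the red fluorescent protein of the plasmid, and no independently made second line of either kind is described. Flasks of the T25 format, left uncoated (CCP) or coated with type I collagen (COL1), received 100000 cells each, and RNA was isolated on day 5. This gave 4 groups of 3 libraries, CCP-PC3, CCP-PC3SFRP2, COL1-PC3 and COL1-PC3SFRP2. The labels call the libraries of a group biological replicates and do not say whether they came from separate cultures, so p-values may measure only technical spread.

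In G1, D-type cyclins such as cyclin D3 (*CCND3*) bind the kinases CDK4 and CDK6, and E-type cyclins (*CCNE1*, *CCNE2*) bind CDK2. These complexes phosphorylate the retinoblastoma protein (*RB1*), which otherwise holds back the E2F transcription factors, among them *E2F1*. Released E2F proteins switch on genes of DNA replication, and they also act on *E2F1* and *CCNE1* themselves. The inhibitors p21 (*CDKN1A*) and p27 (*CDKN1B*) restrain the kinases.

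*E2F1* and *CCNE1* are both textbook targets of E2F, and their promoters are shown because *E2F1* passed the test on COL1 and *CCNE1* did not, a difference between the genes that was not tested. The *E2F1* call was lost in 5 of 24 alternative fits, as described below. Each sequence holds the 250 bases before the annotated start in the sense direction of the gene (RefSeq, GRCh38.p14). *E2F1* lies on the minus strand at chr20:33686386-33686635, and *CCNE1* on the plus strand at chr19:29811741-29811990. Capitals mark the E2F consensus, searched as TTTGGCGC or TTTCGCGC on both strands.
E2F1: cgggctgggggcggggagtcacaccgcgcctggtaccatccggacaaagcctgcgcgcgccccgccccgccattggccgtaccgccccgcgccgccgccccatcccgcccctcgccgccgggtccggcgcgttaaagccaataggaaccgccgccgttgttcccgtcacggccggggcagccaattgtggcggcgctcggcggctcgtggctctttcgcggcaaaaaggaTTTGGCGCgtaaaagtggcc
CCNE1: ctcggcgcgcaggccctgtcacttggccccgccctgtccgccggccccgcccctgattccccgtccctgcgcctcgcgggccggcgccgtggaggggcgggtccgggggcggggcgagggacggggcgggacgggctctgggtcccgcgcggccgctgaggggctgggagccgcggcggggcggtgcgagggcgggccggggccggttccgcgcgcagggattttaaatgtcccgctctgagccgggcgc
The *E2F1* window held 1 match, TTTGGCGC at bases 20 to 13 before the start, and the *CCNE1* window held none. The GC content of these windows was 72.4% for *E2F1* and 81.2% for *CCNE1*. Of 35116 windows of this length over all genes, 340 held such a match, a share of 0.968%. RefSeq windows were found for 8 of the 10 genes, 11 windows in all, and *E2F1* was the only one of these genes with a match. The match is a description of letters in the window and does not show that a factor binds there. Only these exact sequences were searched, so a window without a match may hold E2F sites of another sequence.

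The libraries held 5529459 to 9975972 counts in genes. *SFRP2* was at 10420 to 31130 counts scaled to 1000000 per library (CPM) in the 6 libraries of PC3SFRP2 cells and at 10.7 to 27.0 CPM in the 6 libraries of PC3 cells. The genes *KRT8*, *KRT18* and *EPCAM* of epithelial cells and *VIM*, a mesenchymal gene that PC3 cells express, together had 2850 to 4560 CPM in COL1-PC3SFRP2 and 1280 to 2100 CPM in the other groups, while *KLK3* had 1 count in all libraries. Of the genes of other cell types, *PTPRC* did not exceed 0.612 CPM, *DCN* 0.518 CPM and *CDH5* 0.333 CPM in any library, but *COL1A1* was at 6.83 to 14.9 CPM and *PECAM1* at 6.42 to 15.9 CPM. Summed over 4 fibroblast genes the level was 9.17 to 16.4 CPM in COL1-PC3SFRP2 and 7.03 to 12.8 CPM in the other groups, and the part of these genes in the results was not tested. COL1-PC3SFRP2 stood apart from the other groups. The genes of the mitochondrial genome held 13.7%, 16.8% and 7.17% of its counts against 19.8% to 24.0% in the other 9 libraries. The log2 CPM of genes relative to libraries of other groups followed GC content with a Spearman correlation of 0.714 to 0.836 in its libraries and of -0.477 to 0.520 in the rest, across 13655 genes, which are not independent replicates. COL1-PC3SFRP2 was never part of this reference, so the ranges rest on different sets of reference libraries. The lowest correlation between libraries of a group, 0.881, was that of libraries 2 and 3 of COL1-PC3SFRP2. A further deposited table gives other counts under the name of library 3 (7300197 in all), and the table of a second alignment has another library of the group, numbered 4, in its place. In these other counts the mitochondrial share was 16.1%, within the range of COL1-PC3SFRP2 and below that of the other 9 libraries. Values with these other counts are given below as those of the substituted library. Which of the columns is the third library cannot be told from the labels.

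The levels of the 10 genes were first set against each other per length, as CPM per kilobase of the canonical transcript. In CCP-PC3, *CDK2* and *CDK4* were highest, with means of 28.9 and 28.3 CPM per kilobase and overlapping libraries (23.7 to 31.6 and 26.2 to 31.7). *CCND3* followed at 19.3 CPM per kilobase, with each library (15.6 to 22.1) below those of *CDK4*. *E2F1*, *RB1* and *CDKN1A* formed an overlapping group with means of 11.5, 11.1 and 9.79 CPM per kilobase. *CDKN1B* at 6.85, *CCNE2* at 5.71 and *CCNE1* at 4.55 CPM per kilobase followed, and each of them overlapped its neighbor in this order. *CDK6*, whose canonical transcript of 11663 bases is the longest of the 10, was lowest at 2.74 CPM per kilobase. In COL1-PC3SFRP2 the order was different, with *CDK4* at 78.0 and *CCND3* at 52.6 CPM per kilobase above *CDK2* (33.1) and *E2F1* (31.2). *RB1* had moved down to 3.12 CPM per kilobase, next to *CCNE2* at 2.99. There each library of *CDK4* (61.7 to 101.7) was above those of *CCND3* (43.2 to 60.9), and these were above those of *CDK2* (26.3 to 41.6), which overlapped *E2F1* (23.2 to 39.3).

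**Figure D1:**
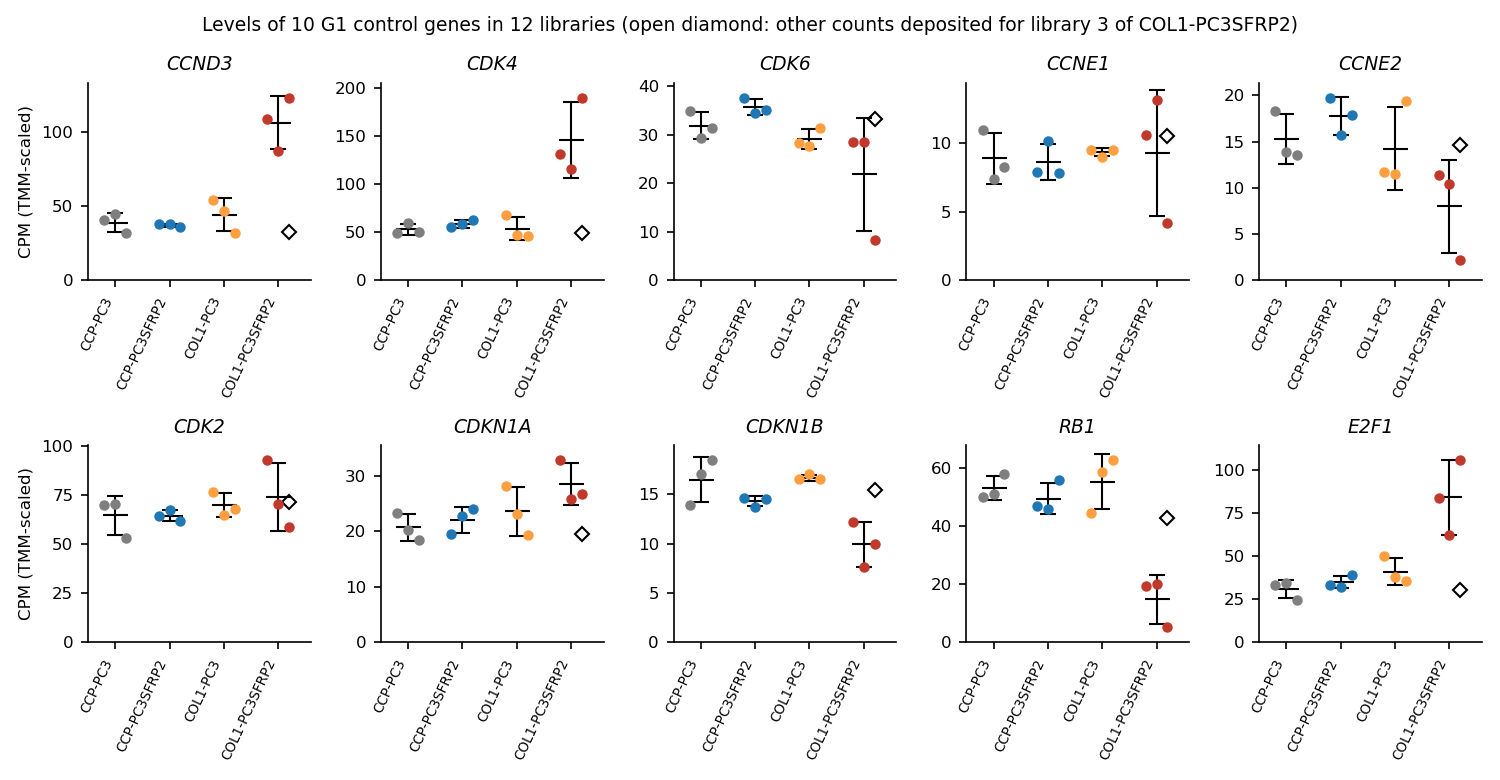
Level of each gene in CPM after TMM scaling (vertical axes from 0) in the 3 libraries of each group, as points, with the mean and SD as bars. The open diamond is the level in the substituted library, in CPM of its own total. *CCND3*, *CDK4* and *E2F1* are above all other groups in each library of COL1-PC3SFRP2, while *RB1*, *CDKN1B* and *CCNE2* are below, and the diamonds of these genes lie closer to the other groups.

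The comparison of CCP-PC3SFRP2 with CCP-PC3 asks what *SFRP2* overexpression does on uncoated plastic. The quasi-likelihood test of edgeR called 0 of the 10 genes (adjusted p under 0.05), where 0.0786% of all genes tested were called. At an unadjusted p under 0.05 the count was also 0, and DESeq2 called 0. The log2 fold changes lay between -0.20 for *CDKN1B* (SE 0.21) and 0.22 for *CCNE2* (SE 0.37), and the libraries of both groups overlapped for *CCND3*, *CDK4*, *RB1* and *E2F1*. The level of *CDK4* was 58.4 ± 3.66 CPM (SD, n = 3) in CCP-PC3SFRP2 and 52.8 ± 5.56 CPM (SD, n = 3) in CCP-PC3. The level of *RB1* was 49.5 ± 5.41 CPM (SD, n = 3) against 53.03 ± 4.22 CPM (SD, n = 3). Neither difference passed the test (adjusted p = 1 for each).

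The comparison of COL1-PC3 with CCP-PC3 asks what the collagen surface does in control cells. Again 0 of the 10 genes were called, 0 had an unadjusted p under 0.05 and DESeq2 called 0. Of all genes tested 0% were called by edgeR's test here. *E2F1* had the highest log2 fold change of the 10, 0.40 (SE 0.22, adjusted p = 1). Its libraries of COL1-PC3 were at 49.8, 37.8 and 35.6 CPM and those of CCP-PC3 at 33.5, 34.5 and 24.9 CPM, so the groups did not overlap, by a narrow margin. For the other 9 genes the log2 fold changes lay between -0.13 (*CDK6*, SE 0.31) and 0.18 (*CDKN1A*, SE 0.20). *CDKN1B*, the gene of p27, stood at 16.7 ± 0.299 CPM (SD, n = 3) on COL1 in PC3 and at 16.5 ± 2.32 CPM (SD, n = 3) in CCP-PC3.

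On COL1, by contrast, 5 of the 10 genes differed between COL1-PC3SFRP2 and COL1-PC3. *CCND3*, *CDK4* and *E2F1* rose by 2.41-fold, 2.71-fold and 2.05-fold, while *RB1* was 3.68-fold lower and *CDKN1B* 1.68-fold lower. Among all genes tested 35.1% were called in this comparison, 18.1% higher and 17.1% lower, and the 5 of 10 are read against that background. *CCNE1*, *CCNE2*, *CDK2*, *CDK6* and *CDKN1A* did not pass. In these bulk libraries a different share of cells in a phase of the cycle and a different amount of RNA per cell cannot be told apart.

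Of *CCND3* and the kinases of the D-type cyclins, *CCND3* and *CDK4* were higher and *CDK6* was not. Another D-type cyclin gene, *CCND1*, which is not among the 10, had a higher level than *CCND3* and did not pass. Its mean was 539.4 CPM in COL1-PC3SFRP2 and 500.1 CPM in COL1-PC3 (log2 fold change 0.11, SE 0.15, adjusted p = 0.609). *CCND3* (ENSG00000112576, chromosome 6 of GRCh38 from 41934934 to 42050357, minus strand) was at 108.7, 87.6 and 123.4 CPM in the libraries of COL1-PC3SFRP2 and at 54.1, 46.8 and 32.0 CPM in those of COL1-PC3. Each library of COL1-PC3SFRP2 was above all of the other 9 libraries of the study, which lay between 31.6 and 54.1 CPM. The log2 fold change on COL1 was 1.27 (SE 0.22, adjusted p = 0.00103, quasi-likelihood test of edgeR).

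*CDK4* (ENSG00000135446, chromosome 12 from 57747727 to 57756013, minus strand) was at 131.5, 115.1 and 189.7 CPM in COL1-PC3SFRP2 and at 67.5, 47.4 and 46.3 CPM in COL1-PC3. The groups did not overlap, and the remaining libraries of the study were all below 67.5 CPM. Its log2 fold change was 1.44 (SE 0.22, adjusted p = 0.000615). The exons of *CDK4* share 44.2% of their bases with exons of *TSPAN31* on the opposite strand. The counting is not stated to use strand, so reads of both genes may be mixed, although *TSPAN31* held 782 counts over all libraries against 6391 for *CDK4*. *CDK6* (ENSG00000105810, chromosome 7 from 92604921 to 92836573, minus strand) was at 28.6, 28.6 and 8.38 CPM in COL1-PC3SFRP2 and at 28.2, 27.6 and 31.5 CPM in COL1-PC3. Only the third library was low, and the log2 fold change of -0.41 did not pass (SE 0.31, adjusted p = 0.341).

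The E-type cyclins and their kinase did not pass the test on COL1. *CCNE1* (ENSG00000105173, chromosome 19 from 29811991 to 29824312, plus strand) was at 10.6, 13.2 and 4.19 CPM in COL1-PC3SFRP2 and at 9.48, 9.003 and 9.54 CPM in COL1-PC3, with libraries of the former on both sides of the latter. Its log2 fold change was 0.01 (SE 0.32). *CCNE2* (ENSG00000175305, chromosome 8 from 94879770 to 94896678, minus strand) was at 11.4, 10.4 and 2.20 CPM against 11.7, 11.5 and 19.4 CPM. The groups did not overlap, but 2 libraries of each lay close together, and the log2 fold change of -0.82 did not pass (SE 0.39, adjusted p = 0.119). In the third library of COL1-PC3SFRP2 *CCNE2* had 11 counts, the fewest of any of these genes in any library. Exons of *INTS8* on the opposite strand cover 37.0% of the exon bases of *CCNE2*, and *INTS8* held 8135 counts against 1299, so the level of *CCNE2* is uncertain. *CDK2* (ENSG00000123374, chromosome 12 from 55966781 to 55972789, plus strand) was at 93.1, 70.6 and 58.9 CPM against 76.8, 65.1 and 67.9 CPM, and its log2 fold change was 0.09 (SE 0.20).

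Of the 2 inhibitors, *CDKN1B* fell and *CDKN1A* did not pass. *CDKN1B* (ENSG00000111276, chromosome 12 from 12685498 to 12722369, plus strand) was at 12.2, 7.64 and 9.98 CPM in COL1-PC3SFRP2 and at 16.5, 17.1 and 16.5 CPM in COL1-PC3. Each library of COL1-PC3SFRP2 was below the other 9 libraries, whose lowest value was 13.8 CPM. Its log2 fold change was -0.75 (SE 0.22, adjusted p = 0.0142), a call that was lost when the fit held only the compared groups (adjusted p = 0.0871). *CDKN1A* (ENSG00000124762, chromosome 6 from 36676460 to 36687337, plus strand) was at 32.9, 25.8 and 26.8 CPM against 28.2, 23.1 and 19.4 CPM. The groups overlapped, and the log2 fold change was 0.28 (SE 0.20, adjusted p = 0.311).

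*RB1* and *E2F1*, the repressor and its partner, moved in opposite directions. *RB1* (ENSG00000139687, chromosome 13 from 48303744 to 48599436, plus strand) was at 19.3, 20.2 and 5.19 CPM in COL1-PC3SFRP2 and at 44.6, 58.6 and 62.7 CPM in COL1-PC3. No library of another group was under 44.6 CPM. The log2 fold change of *RB1*, -1.88, was the furthest from 0 of the 10 genes (SE 0.34, adjusted p = 0.00119). *E2F1* (ENSG00000101412, chromosome 20 from 33675477 to 33686385, minus strand) was at 83.8, 62.5 and 105.8 CPM against 49.8, 37.8 and 35.6 CPM, again with no overlap. Its log2 fold change was 1.03 (SE 0.22, adjusted p = 0.00308).

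The collagen effect within PC3SFRP2 cells, COL1-PC3SFRP2 against CCP-PC3SFRP2, rests on the same 3 libraries of COL1-PC3SFRP2, so it is no independent repeat. Here *CCND3* (log2 fold change 1.52, SE 0.22), *CDK4* (1.31, SE 0.22) and *E2F1* (1.26, SE 0.22) rose, with adjusted p of 0.000545, 0.000745 and 0.00101. *RB1* (-1.72, SE 0.33, adjusted p = 0.00154) and *CCNE2* (-1.13, SE 0.39, adjusted p = 0.0312) fell. The *CCNE2* call was lost in 8 of 24 alternatives, among them leaving out CCP-PC3SFRP2 replicate 1 or 3 (adjusted p = 0.0794 and 0.0717) and fitting only the compared groups (adjusted p = 0.112). That is 5 of 10, where 37.6% of all genes tested were called, 19.9% higher and 17.7% lower. *CDKN1B* was at 14.3 ± 0.502 CPM (SD, n = 3) in CCP-PC3SFRP2 and at 9.93 ± 2.26 CPM (SD, n = 3) in COL1-PC3SFRP2, and did not pass (log2 fold change -0.53, SE 0.22, adjusted p = 0.0643). *CDK6* also missed the threshold (-0.70, SE 0.31, adjusted p = 0.088), as did *CDKN1A* (0.37, SE 0.20, adjusted p = 0.17).

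Whether the *SFRP2* effect differed between the surfaces was tested directly, as the log2 fold change on COL1 minus that on CCP. This difference was 1.34 for *CCND3* (SE 0.31, adjusted p = 0.0357), 1.29 for *CDK4* (SE 0.30, adjusted p = 0.0368) and -1.78 for *RB1* (SE 0.46, adjusted p = 0.0414) in edgeR's quasi-likelihood test. These 3 of 10 stand against 6.32% of all genes tested. *E2F1* (0.86, SE 0.32, adjusted p = 0.0878) and *CDKN1B* (-0.55, SE 0.30, adjusted p = 0.223) did not pass, so a difference between surfaces was not shown for them. All 3 calls were lost when any 1 library of CCP-PC3 or CCP-PC3SFRP2 was left out, or COL1-PC3 replicate 2 or 3, and the substituted library ended them too (adjusted p = 0.757 for each). Adjusting the counts for the GC content and length of transcripts (the GC correction) ended the calls of *CCND3* (0.41, adjusted p = 0.274) and *RB1* (-0.65, adjusted p = 0.0701). With that correction and the third library of COL1-PC3SFRP2 left out, *CCND3* (0.55, adjusted p = 0.00908) and *RB1* (-0.57, adjusted p = 0.0133) passed. Over all alternatives the adjusted p was 1.46e-04 to 0.757 for *CCND3*, 1.94e-05 to 0.757 for *CDK4* and 1e-05 to 0.757 for *RB1*.

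**Figure D2:**
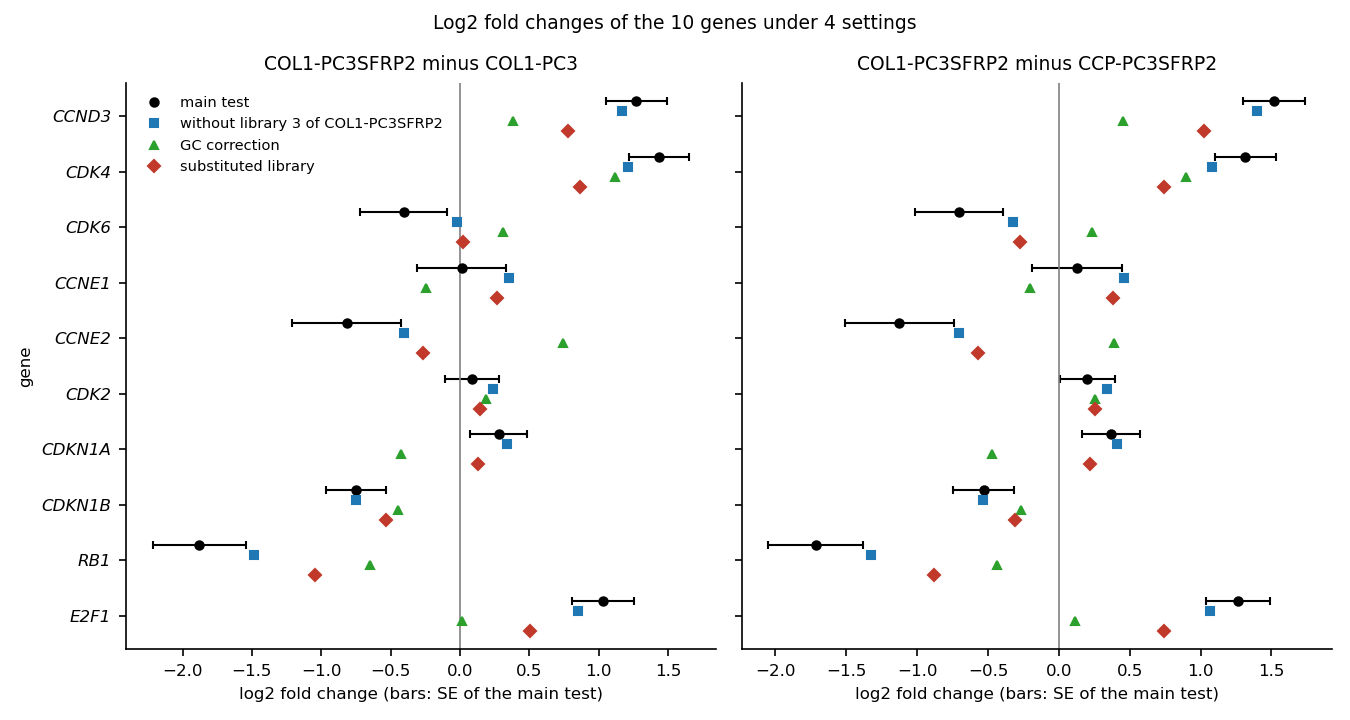
Log2 fold change (horizontal axis) of each gene in both comparisons with COL1-PC3SFRP2, with the main test as black points and its SE as bars, and squares, triangles and diamonds for the values without the third library of COL1-PC3SFRP2, after the GC correction and for the substituted library. *CDK4* and *RB1* keep their sign in each setting shown, while *E2F1* is near 0 with the GC correction (0.02 and 0.11).

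The calls on COL1 were then followed through the libraries that stand apart. Without the third library of COL1-PC3SFRP2 the same 5 genes were called between COL1-PC3SFRP2 and COL1-PC3, with log2 fold changes of 1.17 for *CCND3*, 1.21 for *CDK4*, 0.85 for *E2F1*, -1.48 for *RB1* and -0.75 for *CDKN1B*. With the substituted library 0 of the 10 were called (223 of all genes were). The log2 fold changes there were -1.04 for *RB1*, 0.87 for *CDK4*, 0.78 for *CCND3*, -0.53 for *CDKN1B* and 0.51 for *E2F1*, with adjusted p of 0.0555, 0.135, 0.219, 0.232 and 0.343. In the substituted library itself *CCND3* was at 32.5, *CDK4* at 48.9, *E2F1* at 30.3, *RB1* at 42.9 and *CDKN1B* at 15.5 CPM of its total. With CPM of raw totals for each library, all 5 levels were within the range of the 9 libraries outside COL1-PC3SFRP2. For *RB1* that range was 40.7 to 62.4 CPM. In that setting the first and the second library carry the difference from the other groups.

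The ratio of 2 genes within 1 library does not depend on how libraries are scaled. *E2F1* had 0.43 to 1.12 counts for each count of *RB1* in the 9 libraries outside COL1-PC3SFRP2 (median 0.676). In COL1-PC3SFRP2 the ratio was 4.34, 3.10 and 20.4, and in the substituted library 0.706. *CDK4* had 1.40 to 2.39 counts per count of *CDK6* in the 9 libraries, 4.60, 4.03 and 22.6 in COL1-PC3SFRP2 and 1.47 in the substituted library. For *CDK4* over *CDKN1B* the 9 libraries gave 2.72 to 4.27, COL1-PC3SFRP2 10.8, 15.1 and 19.0, and the substituted library 3.16. In each of these ratios the first and the second library of COL1-PC3SFRP2 were outside the range of the other groups, and the third was the furthest out. For *E2F1* over *RB1* and *CDK4* over *CDKN1B* a place outside that range follows from the levels above, and adds no support to them. In each pair the first gene also had the transcript richer in GC, and the part of GC content was not tested. The E-type cyclins shifted less, with 0.40 to 0.81 counts of *CCNE1* per count of *CCNE2* in the 9 libraries and 0.931, 1.26 and 1.91 in COL1-PC3SFRP2.

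**Figure D3:**
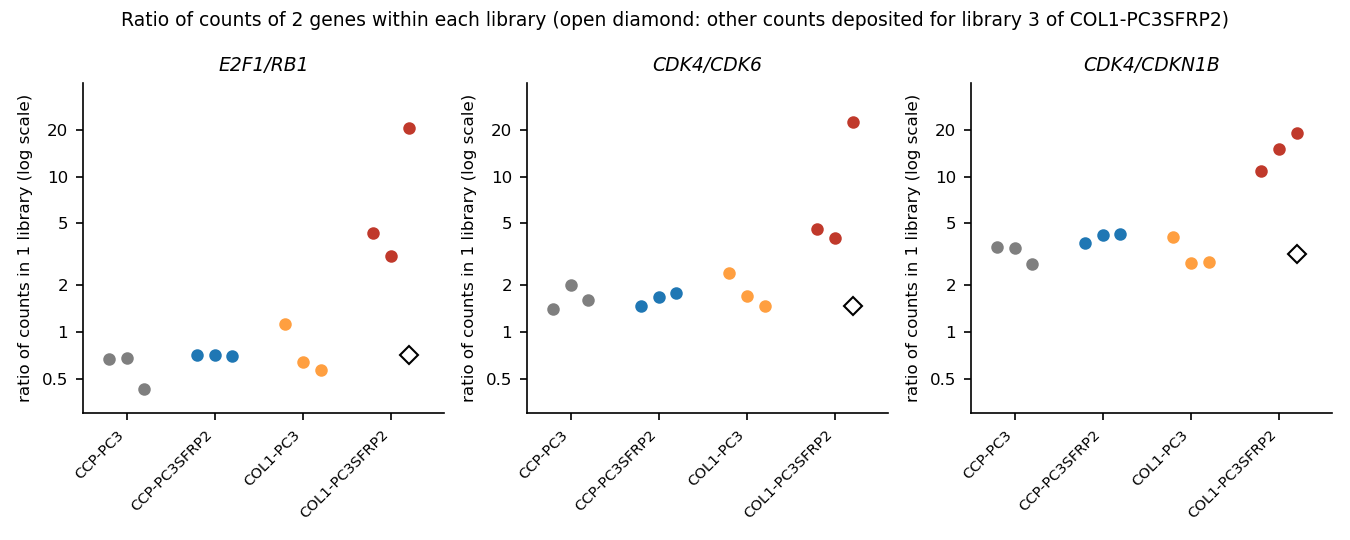
Ratio of the counts of 2 genes within each library (logarithmic vertical axes), as points by group, with the substituted library as an open diamond. The points of COL1-PC3SFRP2 lie above all others in the 3 panels, up to 20.4, 22.6 and 19.0, and the diamonds lie within the range of the other groups.

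The called genes that rose had transcripts richer in GC than those that fell. The genes that rose on COL1 had 60.0% (*CCND3*), 52.0% (*CDK4*) and 61.6% (*E2F1*) GC in the canonical transcript. The genes that fell there or against CCP-PC3SFRP2 had 37.1% (*RB1*), 45.9% (*CDKN1B*) and 34.6% (*CCNE2*), where the median of genes at 1 CPM or more was 47.9%. Over 13655 genes the log2 fold changes between COL1-PC3SFRP2 and COL1-PC3 had a Spearman correlation of 0.808 with GC content (0.599 with the substituted library). Genes were therefore placed in 20 bins of like GC content, and each member was read beside the quartiles of its bin. *CDK4*, at a log2 fold change of 1.44, was above the upper quartile of its bin (0.77, median 0.43). *RB1*, at -1.88, was below the lower quartile (-1.47, median -1.16), and *CDKN1B*, at -0.75, was below its own (-0.58, median -0.18). *CCND3* and *E2F1* lay within the quartiles of their bins, which had medians of 1.09 and 1.19. *CDKN1A*, at 0.28, was below the lower quartile of its bin (0.43, median 0.81), and *CCNE1*, at 0.01, below that of its bin (0.08). *CCNE2*, at -0.82, was above the upper quartile of its bin (-1.02), as was *CDK6*, at -0.41 (-0.52). In this comparison 3 of the 10 members lay within the quartiles of their bins, and against CCP-PC3SFRP2 7 did, *CDKN1B*, *CCNE1*, *CCNE2* and *CDK6* among them, with *CDK4* above and *RB1* and *CDKN1A* below.

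**Figure D4:**
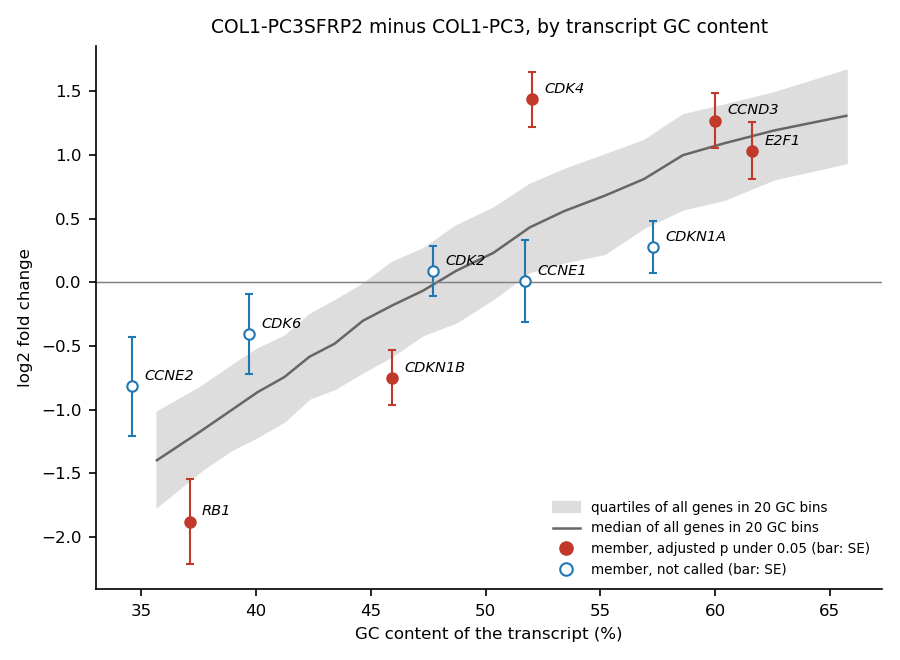
Log2 fold change between COL1-PC3SFRP2 and COL1-PC3 (vertical axis) against the GC content of the transcript in percent (horizontal axis), with the median and quartiles of all genes in 20 bins as a line and a band, and the 10 genes as points with their SE, filled where called. *CDK4* lies above the band, *RB1* and *CDKN1B* below it, and *CCND3* and *E2F1* inside it.

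With each library corrected for GC content and transcript length (the GC correction), the correlation over genes was 0.0135. On COL1, 3 of the 10 genes were then called, beside 3261 of all genes. *CDK4* was higher by 1.12 on the log2 scale (adjusted p = 1.3e-05), and *RB1* was at -0.65 (adjusted p = 0.00313). The remaining call was *CCNE2*, whose direction turned to 0.74 (adjusted p = 0.0287). *CCND3* was at 0.38 (adjusted p = 0.0575), *CDKN1B* at -0.45 (adjusted p = 0.14) and *E2F1* at 0.02 (adjusted p = 0.95), none of which passed. When the third library of COL1-PC3SFRP2 was left out as well, 5 members rose and 2 fell, beside 4063 calls over all genes. *CCND3* (0.52, adjusted p = 1.01e-04) and *CDKN1B* (-0.56, adjusted p = 0.0296) then passed, and *E2F1* (0.13, adjusted p = 0.506) did not. With all 12 libraries kept, the corrected calls between COL1-PC3SFRP2 and CCP-PC3SFRP2 were *CDK4* (0.90, adjusted p = 2.37e-04), *CCND3* (0.45, adjusted p = 0.0276) and *RB1* (-0.43, adjusted p = 0.043). There 3010 of all genes were called. For the difference between surfaces *CDK4* was the only member that passed with the correction (0.93, adjusted p = 0.0152), beside 501 of all genes. When the third library of COL1-PC3SFRP2 was left out as well, *CDK4* (0.78, adjusted p = 1.94e-05), *CCND3* (0.55, adjusted p = 0.00908) and *RB1* (-0.57, adjusted p = 0.0133) passed, beside 1662 of all genes. With the correction and the substituted library together, *RB1* was the 1 member called between COL1-PC3SFRP2 and COL1-PC3, beside 1627 of all genes. In the other comparisons 0 members were called. This alternative was chosen after seeing the data. GC content, the mitochondrial share and the identity of the third library move together with the group COL1-PC3SFRP2, and their part in these results was not tested.

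The wider G1 network was read from 32 further genes, of which *CCND2* had too few counts to be tested. On COL1, 3 of the 31 tested rose and 9 fell in COL1-PC3SFRP2, with a median log2 fold change of -0.40 against 0.01 over all genes. These 12 are 38.7% of the list, near the 35.1% called over all genes. Of the inhibitors of CDK4 and CDK6, *CDKN2B* (p15) fell from 15.0 to 5.42 CPM (log2 fold change -1.50, SE 0.31, adjusted p = 0.00251), while *CDKN2D* (p19) rose from 2.67 to 6.37 CPM (1.27, SE 0.42, adjusted p = 0.0288). *RBL1*, which encodes the RB1 relative p107, fell (-0.97, adjusted p = 0.0346), and so did *E2F5*, which encodes a repressing E2F (-1.11, adjusted p = 0.00361). *RBL1* was called in 11 and *E2F5* in 22 of 24 alternatives. Of the ubiquitin ligases that degrade p27 and cyclin E, *SKP1* (-1.35, adjusted p = 6.86e-04), *SKP2* (-0.49, adjusted p = 0.0428) and *FBXW7* (-1.06, adjusted p = 0.0347) fell, although *SKP2* was called in 6 and *FBXW7* in 11 of 24 alternatives. The other genes of these ligases on the list, *CUL1* (-0.22, adjusted p = 0.417), *RBX1* (-0.47, adjusted p = 0.118) and *CKS1B* (-0.16, adjusted p = 0.677), did not pass. The cyclin H and assembly factor genes of the CDK-activating kinase, *CCNH* (-1.46, adjusted p = 0.0137) and *MNAT1* (-1.02, adjusted p = 0.0134), fell as well, and the gene of its kinase, *CDK7*, did not pass (-0.55, adjusted p = 0.133). *LIN9* and *LIN37*, subunits of the DREAM and MuvB complexes, moved apart (-1.25 and 2.95), with *LIN37* at 0.344 CPM in COL1-PC3. *CDC25A*, the gene of a phosphatase that activates CDK2, rose by 0.56 (adjusted p = 0.0335), a call made in 12 of 24 alternatives. The GC content was 34.9% to 46.9% in the genes that fell and 51.8% to 61.2% in those that rose. With the GC correction 5 rose and 4 fell, beside 3261 calls over all genes, and the median turned to 0.22. Only *E2F5* and *SKP1* of the 12 kept their call. The other 7 calls were of *CDKN2C*, *E2F7*, *E2F8*, *LIN54* and *RBBP4*, which rose, and *CDKN1C* and *E2F4*, which fell. *SKP2* (0.39), *MNAT1* (0.35) and *LIN9* (0.23) changed sign with the correction and did not pass. With the substituted library 0 rose and 0 fell. On CCP 0 of the 31 were called (1 at an unadjusted p under 0.05, 0 with DESeq2).

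The genes that E2F proteins switch on were read from 20 targets. On COL1, 8 rose and 3 fell in COL1-PC3SFRP2, with a median log2 fold change of 0.29, so that 11 of the 20 were called, where 35.1% of all genes were. The genes that rose were *MCM2*, *MCM3*, *MCM5* and *MCM7* of the replicative helicase, the origin factors *CDT1* and *CDC45*, the thymidine kinase gene *TK1* and *UHRF1*, which maintains DNA methylation. Of the same helicase, *MCM4* (0.15, adjusted p = 0.491) and *MCM6* (-0.48, adjusted p = 0.131) did not pass edgeR's test. *UHRF1* went from 7.56 to 33.0 CPM (log2 fold change 2.11, SE 0.31, adjusted p = 0.00052), *MCM2* from 27.0 to 86.2 CPM (1.68, SE 0.32, adjusted p = 0.00153) and *TK1* from 243.6 to 600.1 CPM (1.30, SE 0.23, adjusted p = 0.00108). Among the 3 that fell were *CCNA2* (-0.85, adjusted p = 0.00988) and *RRM2* (-0.74, adjusted p = 0.00373), which are E2F targets too. GC content was 51.3% to 64.3% in the 8 and 41.9% to 44.8% in the 3. With the GC correction 9 rose and 1 fell, beside 3261 calls over all genes. Of the 11 calls 8 were kept, among them *UHRF1* (1.34, adjusted p = 0.00012), *MCM2* (0.80, adjusted p = 0.0017) and *TK1* (0.36, adjusted p = 0.0349). With the substituted library 0 rose and 0 fell. In COL1-PC3SFRP2 against CCP-PC3SFRP2, 10 rose and 2 fell, where 37.6% of all genes were called. The difference between surfaces passed for *MCM2*, *MCM7*, *TK1* and *UHRF1* and for 0 in the other direction, 4 of 20 beside 6.32% over all genes. With the GC correction 2 of these calls were kept, *MCM7* and *UHRF1*, beside 501 calls over all genes. With the substituted library 0 were kept. On CCP, 0 of the 20 were called (0 at an unadjusted p under 0.05, 0 with DESeq2). Of the 26 promoter windows of 17 of these targets, 4 held the E2F consensus (*MCM6*, *MCM7*, *POLA1* and *UHRF1*).

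Genes whose log2 CPM over the 12 libraries was most like that of a member were listed as a description, since COL1-PC3SFRP2 stands apart from the other libraries in most of them. *RB1* was most like *SC5D*, *SNX10* and *ABCE1* (Pearson's r of 0.998, 0.996 and 0.996), which have 35.5% to 36.9% GC beside the 37.1% of *RB1*. *E2F1* was most like *SLC7A5*, *TK1* and *SLC44A2* (0.991, 0.991 and 0.990), at 55.5% to 61.2% GC beside 61.6%. *TK1* is a known target of *E2F1*, but a link between them was not tested here. *CCND3* was most like *RAB34*, *TARBP2* and *CYC1* (0.994 each), at 60.1% to 61.5% GC beside 60.0%. *CDK4* was most like *AP5Z1*, *PDXK* and *ATAD3A* (0.991, 0.990 and 0.990), whose GC content of 57.3% to 65.3% was above the 52.0% of *CDK4*. The likeness was lower for *CDK2*, at 0.933 with *INTS4*.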

How the data were processed

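RNA of PC3 and PC3SFRP2 cells on CCP and COL1 was sequenced from SENSE mRNA-Seq V2 libraries with reads of 50 bases. STAR was used by the authors for alignment (GRCh38), and the deposited values are raw counts of each Ensembl gene in 5 tables, of which 3 were used: the table of triplicates, 1 column of a table of all libraries (the substituted library) and 11 libraries of a second alignment. The counter is not given in the sources used here. In the tables used, 19 columns were mapped to no sample or not used. The members and gene lists were chosen with earlier results of these data known. Some genes of the lists and markers are not reported here by name. The rule named all members, any list gene called in a comparison and the 3 genes most like each member by Pearson's r at a mean of 10 CPM or more. Some list genes that were not called are also named, beside called genes of the same complex or family.

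Genes with at least 10 counts summed were kept, scaled by TMM and tested in 1 fit of 4 groups with edgeR 4.0.16 (quasi-likelihood, robust, R 4.3.3), with Benjamini-Hochberg adjustment over all genes tested and calls at an adjusted p under 0.05. SE is the log2 fold change divided by the root of F. CPM are relative to TMM-scaled totals. GC content and length come from the Ensembl canonical transcripts of GENCODE release 44. The code was tested on simulated data. Alternatives were DESeq2 1.42.0, RLE factors, other filters, fits of the groups compared only, a replicate block, the GC correction (spline of GC content and length per library, as an offset), the substituted library, the second alignment and leaving out single libraries. The replicate numbers did not pair the samples.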

Additional observations from a re-analysis of the deposited data

Results flagged for a closer look

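The effect of *SFRP2* differed between the surfaces for 3 of the 10 genes by a direct test (edgeR's quasi-likelihood test): the log2 fold change on COL1 minus that on CCP was 1.34 for *CCND3*, 1.29 for *CDK4* and -1.78 for *RB1*, with adjusted p of 0.0357, 0.0368 and 0.0414. These 3 of 10 stand beside 6.32% of all genes tested. All 3 calls were lost when any 1 library of CCP-PC3 or CCP-PC3SFRP2 was left out, or COL1-PC3 replicate 2 or 3. With the substituted library these differences were 0.85, 0.72 and -0.94, and none passed. With the GC correction *CDK4* passed (0.93, adjusted p = 0.0152) and *CCND3* (0.41, adjusted p = 0.274) and *RB1* (-0.65, adjusted p = 0.0701) did not. When the third library of COL1-PC3SFRP2 was left out of the corrected fit, *CCND3* (0.55, adjusted p = 0.00908), *CDK4* (0.78, adjusted p = 1.94e-05) and *RB1* (-0.57, adjusted p = 0.0133) passed.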

How the results depend on the processing

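Between COL1-PC3SFRP2 and COL1-PC3, 5 genes were called in the main test. With the GC correction 3 were called: *CDK4* and *RB1* of these 5, and *CCNE2*, which was not among them and had turned direction. With the substituted library 0 were called, and 1 with both. With the GC correction and the third library of COL1-PC3SFRP2 left out, 5 rose and 2 fell, *CCND3* and *CDKN1B* among the calls. The 5 called between COL1-PC3SFRP2 and CCP-PC3SFRP2 became 3 with the GC correction, 0 with the substituted library and 0 with both. They became 2 with the GC correction and the replicate block. The 3 called for the difference between surfaces became 1 with the GC correction (1 with the block as well), 0 with the substituted library, 0 with both and 0 with the replicate block, which left the other counts at 0, 5, 0 and 5. With the GC correction and the third library of COL1-PC3SFRP2 left out, 2 were called higher and 1 lower for that difference. Over all genes the GC correction took the calls of these comparisons, in the same order, from 7157 to 3261, from 7665 to 3010 and from 1287 to 501. The replicate numbers are not stated to pair samples: 18 correlations between same-numbered libraries were -0.416 to 0.313, 2 of them over 0.1, and 0 libraries correlated best with their own number. Leaving out 1 library gave 5 calls in each case between COL1-PC3SFRP2 and COL1-PC3, 4 to 7 between COL1-PC3SFRP2 and CCP-PC3SFRP2, 0 to 4 for the difference between surfaces and 0 in both comparisons within CCP or PC3. *CCNE2* changed direction between COL1-PC3SFRP2 and COL1-PC3 with the GC correction alone (0.74), with the block added to it (0.71) and with the third library left out as well (0.80). It passed in that direction in each of them (adjusted p = 0.0287, 0.032 and 0.00155). Against CCP-PC3SFRP2 *CCNE2* changed direction too (0.39, 0.38 and 0.45, and 0.14 with the GC correction and the substituted library), and did not pass. *CDK6* turned with the GC correction alone (0.31 and 0.23) and passed the test in that direction with the third library left out as well (0.46 and 0.37). *CDKN1A* turned with the GC correction (-0.43 and -0.47), as did the difference between surfaces of *E2F1* (-0.17), and none of these passed. The cause was not tested. Of 710 tests of single members under 24 alternatives, 616 kept their side of the threshold (55 of them, not called in either fit, with a change of sign), 69 lost and 16 gained a call, and 9 reversed. The alternative of substituted library and GC correction together was chosen after seeing the data. Levels from raw totals moved by more than 1 SD in 5 of 40 cases. Members held 11 to 950 counts in a library, which limits *CCNE2* and *CCNE1* most.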
